A study of Homo sapiens with 6 samples.

Results

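Chaperones and their helpers that fold proteins in the cytosol were examined as a set of 48 genes, taken as the rows of the count files whose symbol is in a list of HSP90, HSP70, small heat shock protein, DNAJ, cochaperone and chaperonin genes. The files hold 56638 gene symbols, of which 23074 were counted well enough to be tested, and all 48 chaperone genes were among these. By what the proteins are known to do, the list holds 2 HSP90 genes, 8 cytosolic HSP70 and HSP110 genes and 8 J-domain proteins. It also holds 9 HSP90 cochaperones, 4 genes for STUB1 and BAG proteins, 7 chaperonin subunits, 2 heat shock factors, 3 small heat shock protein symbols and 5 chaperones of mitochondria. The name of cytosolic heat shock proteins therefore does not cover TRAP1, HSPA9, HSPD1, HSPE1 and DNAJA3, whose products work in mitochondria. HSPB11 carries a small heat shock protein symbol but is now named IFT25 and is known as a part of intraflagellar transport.

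The RNA was from human colorectal cancer cells, an established line that is named SW480 in the sample labels and DLD-1 in the methods of the study. A total of 6 libraries were sequenced, 3 labelled as transfected with a nonspecific control siRNA and 3 labelled with siRNA against lncRNA-AF339830, the long noncoding RNA also called GLCC1. The groups are those of the sample titles, whereas the library names tie each group to the other siRNA, and with the groups exchanged every direction given here turns around. GLCC1 has no row of its own in the files, so the knockdown was not checked in these libraries, and the gene that holds its locus, FARP1, was at 111 ± 2.13 CPM (SD, n = 3) with control siRNA and at 64.8 ± 1.32 CPM with GLCC1 siRNA. The unit of level throughout is CPM, the read pairs of a gene per 1000000 counted on genes, after TMM scaling. The titles number the libraries of a group as siRNA1 to siRNA3, whereas the genotype label gives siRNA1 for all of them. The numbers were read as replicates here, and whether they stand for different siRNAs cannot be told from the labels, so the SD of a group may include differences between siRNAs. Nothing in the labels says that the libraries of a group came from separate cultures, so p-values measure the spread between these samples only.

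The libraries held between 11948790 and 19042516 counted read pairs, and the chaperone genes took 1.51% to 1.66% of them with control siRNA and 1.38% to 1.51% with GLCC1 siRNA. GLCC1 siRNA replicate 2 was the smallest library and stood apart from the other libraries of its group. Its median distance from the mean of replicates 1 and 3 over the chaperone genes was 0.21 on the log2 scale, whereas replicates 1 and 3 lay 0.04 apart and the control libraries between 0.06 and 0.11 apart. It was above both other GLCC1 siRNA libraries for 27 chaperone genes, below both for 18 and between them for 3. Over the 10378 genes that averaged 10 CPM or more the same distance was 0.23, so the shift was not particular to the chaperones. Read pairs on no gene made up 11.2% to 11.5% with control siRNA, 12.5% and 12.7% in GLCC1 siRNA replicates 3 and 1 and 14.2% in replicate 2, and their part in the differences below was not tested. The epithelial markers EPCAM, CDH1, CDX2, VIL1, KRT8 and KRT18 were present, KRT20 was below 1 CPM, and the blood and endothelial markers PTPRC and PECAM1 were at 0 in all libraries. Of these 7 epithelial markers, 4 fell (57.1%) with GLCC1 siRNA and none rose, at an adjusted p under 0.05. Of the 10378 genes that averaged 10 CPM or more, 29.8% fell and 20.1% rose. KRT8 fell by 1.61, KRT18 by 1.82, CDH1 by 0.53 and EPCAM by 0.30 on the log2 scale, whereas CDX2 gave −0.24 (adjusted p = 0.055), VIL1 0.21 (adjusted p = 0.067) and KRT20 −0.92 (adjusted p = 0.25). The mesenchymal marker COL1A1 was at 13.4 CPM with control siRNA and fell by 0.86 (adjusted p = 0.00029), and ALB had at most 2 counts in a library. The part of these markers in the values below was not tested. Less of an RNA per cell and fewer of the cells that carry it cannot be told apart in such libraries.

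Chaperones bind unfolded or unstable proteins and let them go in cycles driven by ATP. HSP70 takes up clients that J-domain proteins deliver, exchange factors such as the BAG proteins reset it, and the adaptor STIP1 hands clients on to HSP90, which brings kinases, steroid receptors and other regulators to their active form with the help of its cochaperones. The chaperonin TRiC, a double ring of CCT subunits, folds actin and tubulin, and the transcription factor HSF1 raises many of these genes under proteotoxic stress. The study is concerned with the binding of GLCC1 to HSP90, and the comparison here asks whether the genes of this folding machinery differed in level when GLCC1 was targeted.

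HSF1 binds arrays of a short unit, nGAAn, in alternating orientation, and such heat shock elements were looked for in the promoters of the genes. Promoter windows from 250 bases before to 50 bases after the start were taken from RefSeq for 44 of the 48 genes, which have 64 windows in all, 1 to 3 a gene. Pairs of units, spelled GAANNTTC or TTCNNGAA and read on both strands, stood in at least 1 window of 21 of these 44 genes (47.7%), beside 14.0% of 11513 tested genes and 16.2% of all 27305 genes with a window. Counted by window, they stood in 22 of 64 (34.4%), beside 10.7% of the windows of the tested genes, which also average 1.45 windows a gene. Elements with 1 more unit at either end, in the same spacing, each of which also holds a pair, were found for 7 genes (15.9%), beside 0.539% and 0.608%, and in 7 of the 64 windows (10.9%), beside 0.391%. They belong to HSP90AA1, HSP90AB1, HSPA8, HSPD1, DNAJA1, DNAJB6 and CHORDC1. The stretches below show such elements in genes that differed between the groups in opposite directions and in HSPA8. Letters in capitals mark the matched units, and the strand shown is that of the gene. The coordinates are of build GRCh38.p14 and are chr14:102087100-102087152 on the minus strand for HSP90AA1, chr6:44247811-44247863 on the plus strand for HSP90AB1, chr11:123062159-123062211 on the minus strand for HSPA8, chr2:197500048-197500090 on the minus strand for HSPD1, chr9:33025256-33025308 on the plus strand for DNAJA1 and chr11:90223067-90223129 on the minus strand for CHORDC1.
HSP90AA1: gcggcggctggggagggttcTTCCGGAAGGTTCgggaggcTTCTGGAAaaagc
HSP90AB1: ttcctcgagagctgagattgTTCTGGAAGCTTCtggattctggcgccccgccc
HSPA8: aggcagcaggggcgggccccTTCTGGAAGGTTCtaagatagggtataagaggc
HSPD1: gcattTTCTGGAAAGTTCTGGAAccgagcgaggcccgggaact
DNAJA1: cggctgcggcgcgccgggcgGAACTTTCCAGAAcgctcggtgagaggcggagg
CHORDC1: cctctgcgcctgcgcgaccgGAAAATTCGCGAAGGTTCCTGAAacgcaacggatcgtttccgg

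Among the genes with a window, a pair of units stood in 9 of 18 that were lower with GLCC1 siRNA, in 4 of 7 that were higher and in 8 of 19 that were neither. The 3-unit element stood in 3, 2 and 2 of them. HSP90AA1, HSP90AB1 and CHORDC1 were lower, HSPD1 and DNAJA1 were higher, and HSPA8 and DNAJB6 did not pass the test. These matches describe the letters of the promoters only.

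With GLCC1 siRNA, 7 of the 48 chaperone genes rose and 21 fell at an adjusted p under 0.05 in edgeR's quasi-likelihood test, and 20 passed in neither direction. Over all tested genes 14.9% were called higher and 16.7% lower. Since most chaperone genes are abundant, the nearer background is the genes that averaged 10 CPM or more, of which 20.1% were higher and 29.8% lower. Of the 45 chaperone genes at that level, 7 (15.6%) were higher and 21 (46.7%) lower. The median log2 fold change of the 48 genes was −0.23, beside 0.03 over all tested genes, and that of the 45 was −0.22, beside −0.07. No chaperone gene rose by 2-fold or more and 2 fell that far, TCP1 and HSPB11. This rule was passed by 4.42% and 3.37% of all tested genes, and by 217 and 357 of the 10378 at 10 CPM or more. Libraries of the groups did not overlap for 8 chaperone genes on the higher side and for 24 on the lower side. Over all tested genes these were 22.3% and 24.0%. Among the 10378 genes at 10 CPM or more they were 2715 on the higher and 3920 on the lower side. All 8 and 24 chaperone genes were among the 45 at that level. Without GLCC1 siRNA replicate 2, 8 were higher and 25 lower, and over all tested genes 4844 were higher and 5076 lower. Without control replicate 1, 2 or 3 the chaperone genes called higher were 3, 3 and 4, and those called lower 18, 17 and 17.

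**Figure D1:**
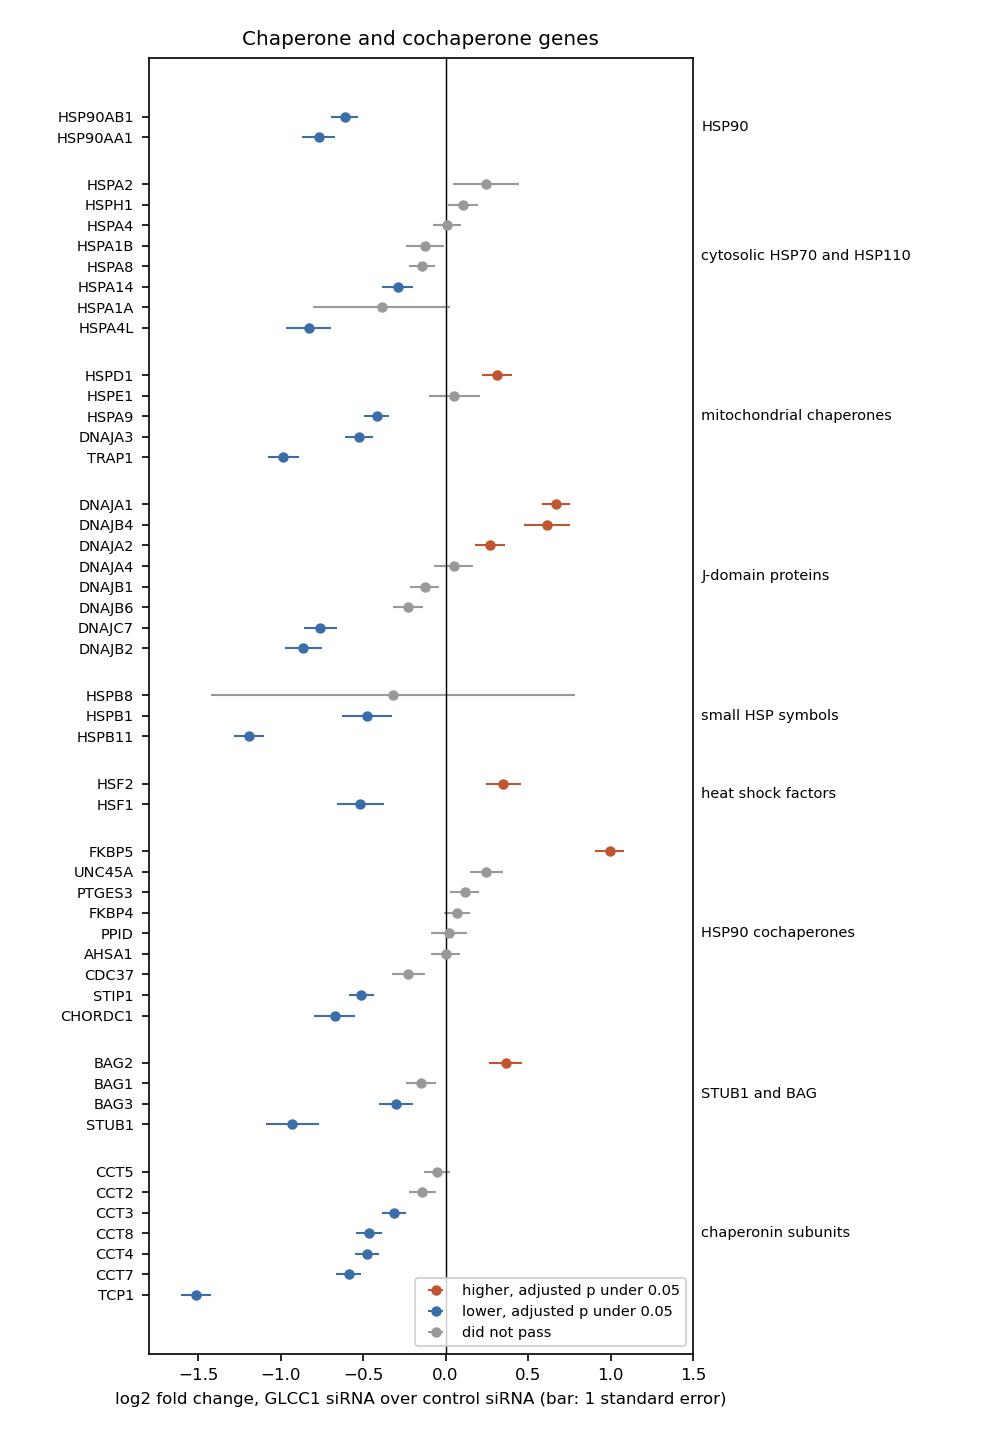
Log2 fold change of the 48 chaperone genes, GLCC1 siRNA over control siRNA, on the x axis, with genes grouped by role on the y axis and bars of 1 standard error. Orange marks the 7 genes higher and blue the 21 genes lower at an adjusted p under 0.05, and grey the 20 others; TCP1 lies farthest left at −1.51 and FKBP5 farthest right at 0.99.

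For 6 of the 9 roles, the levels summed over the genes of the role did not overlap between the groups of libraries. The 2 HSP90 genes together were at 4769 ± 350 CPM with control siRNA and at 2935 ± 312 CPM with GLCC1 siRNA, a change of −38.4%. The 7 chaperonin subunits changed by −27.3%, the small heat shock protein symbols by −36.8% and the J-domain proteins by 8.90%. Each of these had an exact two-sided permutation p of 0.1, the smallest that 3 against 3 libraries can give. The J-domain sum went from 686 to 747 CPM and leaves out DNAJA3, which is grouped with the mitochondrial chaperones. DNAJA3 fell from 140 to 97.6 CPM, so the change of 8.90% holds only for the genes grouped here. The sum of small heat shock protein symbols includes HSPB11, now named IFT25, which fell from 113 to 49.7 CPM. HSPB1 fell from 253 to 182 CPM. The sum over cytosolic HSP70 and HSP110 changed by −7.35% (exact permutation p = 0.2) and that over the mitochondrial chaperones by −2.25% (exact permutation p = 0.9). All 48 genes together changed by −19.0%, from 16811 ± 836 to 13619 ± 612 CPM.

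HSP90AA1, the stress-inducible cytosolic HSP90 (chr14:102547079-102606036, build GRCh37, minus strand), was at 2867, 2491 and 2866 CPM in the control libraries and at 1456, 1877 and 1491 CPM in the GLCC1 siRNA libraries. All 3 GLCC1 siRNA libraries were below every control library, and replicate 2 was the highest of them. The log2 fold change was −0.77 ± 0.10 (SE, adjusted p = 6.7e-05), or 1.70-fold lower, and it was −0.89 without replicate 2. HSP90AB1, the constitutive cytosolic HSP90 (chr6:44213903-44221625, build GRCh37, plus strand), was at 2112, 1873 and 2097 CPM in the control libraries and at 1268, 1417 and 1296 CPM with GLCC1 siRNA. These groups did not overlap either, and the log2 fold change was −0.61 ± 0.08 (adjusted p = 6.1e-05), or 1.53-fold lower. These are levels of RNA, and protein was not measured in these libraries. By western blot, the study reports no effect of GLCC1 knockdown in HT29 and DLD-1 cells on HSP90 protein. It reports the same for GLCC1 overexpression in LoVo and SW480 cells.

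The balance of the 2 HSP90 genes does not depend on the scaling of the libraries. HSP90AA1 took 57.6%, 57.1% and 57.8% of their summed counts in the control libraries and 53.5%, 57.0% and 53.5% in the GLCC1 siRNA libraries. Replicate 2 with GLCC1 siRNA lay close to the lowest control library, whereas the other two lay lower. The means differed by −2.82 percentage points (exact two-sided permutation p = 0.1, the smallest possible) and, without that library, by −3.99 points.

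Among the cytosolic HSP70 and HSP110 genes, 2 of 8 fell (25%) and none rose. Of genes that averaged 10 CPM or more, 29.8% fell and 20.1% rose. HSPA8, the constitutive HSP70, was at 2501, 2255 and 2650 CPM with control siRNA and at 2237, 2255 and 2223 CPM with GLCC1 siRNA. The GLCC1 siRNA libraries lay close together at the lower edge of the control range, and the log2 fold change of −0.14 ± 0.08 did not pass (adjusted p = 0.19), though without GLCC1 siRNA replicate 2 it was −0.14 with an adjusted p of 0.044. HSPA4L, an HSP110-type exchange factor for HSP70, was at 78.0, 70.7 and 76.5 CPM in the control libraries and at 34.6, 53.9 and 38.8 CPM in the others. It had the largest change of this role, −0.83 ± 0.14 (adjusted p = 4e-04), with replicate 2 nearest to the controls, and it was −1.03 without that library. HSPA14, a ribosome-associated HSP70, changed by −0.29 (adjusted p = 0.03). This call was lost when any one library other than GLCC1 siRNA replicate 2 was left out. It was also lost when libraries were scaled by their totals only (adjusted p = 0.21). The HSP110 genes HSPA4 and HSPH1, which also exchange nucleotide on HSP70, gave log2 fold changes of 0.01 and 0.11 that did not pass.

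The heat-inducible HSP70 genes HSPA1A and HSPA1B encode nearly the same protein. Read pairs that fit both may have been split between them or left uncounted, so their levels, also summed, are uncertain. HSPA1B was at 80.2, 75.5 and 86.4 CPM with control siRNA and at 86.9, 61.2 and 73.5 CPM with GLCC1 siRNA. The groups overlapped, and the log2 fold change was −0.12 ± 0.12 (adjusted p = 0.46). HSPA1A was near 1 CPM in both groups, and the sum of both genes gave −0.13 ± 0.12 (adjusted p = 0.44). HSPA2, best known from the testis, was at 2.70 ± 0.50 CPM with control siRNA and at 3.19 ± 0.30 CPM with GLCC1 siRNA and did not pass.

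**Figure D2:**
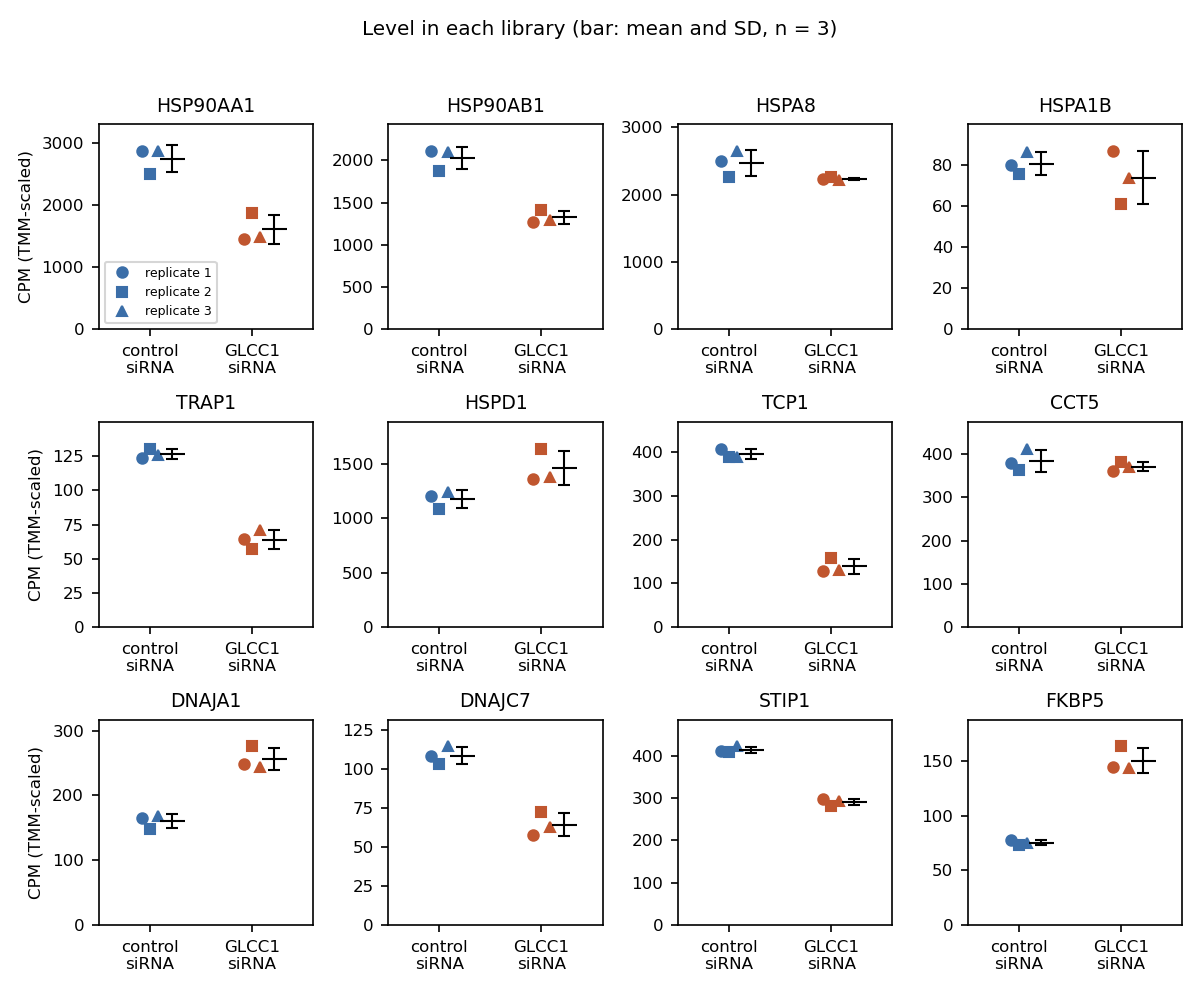
Level of 12 chaperone genes in each library in CPM on the y axis, which starts at 0, for control siRNA (blue) and GLCC1 siRNA (orange), with the replicate given by the marker and the mean ± SD (n = 3) by the bar. HSP90AA1, HSP90AB1, TRAP1, TCP1, DNAJC7 and STIP1 lie lower in all 3 GLCC1 siRNA libraries, HSPD1, DNAJA1 and FKBP5 lie higher, HSPA1B and CCT5 overlap, and HSPA8 meets the control range at its lower edge.

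The J-domain proteins, which bring clients to HSP70 and start its ATP hydrolysis, moved in both directions. Of the 8 in this group, which leaves out DNAJA3 of mitochondria, 3 were higher (37.5%) and 2 lower (25%). Of genes that averaged 10 CPM or more, 20.1% were higher and 29.8% lower. DNAJA1 was at 165, 149 and 168 CPM in the control libraries and at 248, 276 and 244 CPM in the GLCC1 siRNA libraries, without overlap. Its log2 fold change was 0.67 ± 0.09 (adjusted p = 4.9e-05). DNAJB4 rose by 0.62 ± 0.14 (adjusted p = 0.0037), with 33.2 to 37.8 CPM in the control libraries and 47.1, 69.4 and 47.6 CPM with GLCC1 siRNA, where replicate 2 was the highest. Without that library its log2 fold change was 0.42 (adjusted p = 1.8e-06). DNAJA2, a close relative of DNAJA1, rose by 0.27 (adjusted p = 0.041), a call lost when any one control library was left out. Of the summed counts of these genes DNAJA1 took 55.9 ± 0.855% with control siRNA and 62.7 ± 0.885% with GLCC1 siRNA (exact permutation p = 0.1).

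On the other side, DNAJB2, a J-domain protein with ubiquitin-interacting motifs, was at 30.6, 37.1 and 33.5 CPM with control siRNA and at 18.1, 17.0 and 20.5 CPM with GLCC1 siRNA. Its change was −0.86 ± 0.11 (adjusted p = 6.1e-05), and the groups were well apart. DNAJC7, a cochaperone with tetratricopeptide repeats that binds both HSP70 and HSP90, was at 108, 103 and 114 CPM and at 57.8, 72.1 and 62.7 CPM, a change of −0.76 ± 0.10 (adjusted p = 5.6e-05). Of the DNAJC7 transcript, 22.1% lies under exons of CNP on the other strand. DNAJB1, the main partner of inducible HSP70, gave −0.13 (adjusted p = 0.29), and DNAJA4 did not pass either. DNAJB6, known to hold back aggregation of polyglutamine proteins, gave −0.23 (adjusted p = 0.076) and passed without GLCC1 siRNA replicate 2, at −0.27 (adjusted p = 6.6e-04).

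Of the 9 HSP90 cochaperones, 1 rose (11.1%) and 2 fell (22.2%), beside 20.1% and 29.8% of genes that averaged 10 CPM or more. FKBP5, an immunophilin that keeps steroid receptors in a form of low hormone affinity and is itself a target of the glucocorticoid receptor (chr6:35541362-35696360, build GRCh37, minus strand), had the largest rise of all 48 genes. It was at 77.7, 73.0 and 75.3 CPM with control siRNA and at 144, 163 and 143 CPM with GLCC1 siRNA. The groups were far apart, and the log2 fold change was 0.99 ± 0.09 (adjusted p = 1.9e-06). Its paralogue FKBP4, which acts on the same receptors, was at 162 ± 9.29 CPM and at 170 ± 5.41 CPM and gave 0.07 ± 0.08 (adjusted p = 0.55).

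STIP1, the adaptor between HSP70 and HSP90, was at 411, 407 and 421 CPM with control siRNA and at 296, 282 and 292 CPM with GLCC1 siRNA. The 3 libraries of each group lay close together, and STIP1 fell by 0.51 ± 0.07 (adjusted p = 1.3e-04). CHORDC1, which binds the ATPase domain of HSP90, was at 118, 105 and 114 CPM and at 65.8, 86.9 and 59.2 CPM, a change of −0.67 ± 0.12 (adjusted p = 9.3e-04) with replicate 2 again nearest to the controls. The ATPase activator AHSA1 gave 0.0003, the kinase adaptor CDC37 −0.22, the closing factor PTGES3 (p23) 0.12, the cyclophilin PPID 0.02 and the myosin chaperone UNC45A 0.25, and none of them passed. CDC37 passed without GLCC1 siRNA replicate 3, at −0.31 (adjusted p = 0.04). UNC45A passed without GLCC1 siRNA replicate 2, at 0.34 (adjusted p = 3.7e-06), with library totals only (adjusted p = 0.011) and with 10 counts required in every library (adjusted p = 0.037).

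STUB1, the ubiquitin ligase CHIP that marks clients of HSP70 and HSP90 for the proteasome, was at 40.8, 44.6 and 41.4 CPM with control siRNA and at 23.4, 15.0 and 27.6 CPM with GLCC1 siRNA. All GLCC1 siRNA libraries were lower, replicate 2 the most, and the change was −0.93 ± 0.16 (adjusted p = 6e-04), or −0.73 without replicate 2. JMJD8 lies on the other strand under 52.2% of the STUB1 transcript, so counts may be affected if the counting did not use strand. BAG2, an inhibitor of STUB1, rose by 0.36 (adjusted p = 0.013), a call that needed all 3 control libraries, and 42.7% of its transcript lies under exons of RAB23 on the other strand. BAG3, which links HSP70 to selective autophagy, fell by 0.30 (adjusted p = 0.042), and this call was lost when any one control library was left out. It was also lost in 3 alternatives that kept all libraries, library totals only among them. BAG1, another exchange factor of HSP70, gave −0.15 (adjusted p = 0.25) and −0.18 without GLCC1 siRNA replicate 2 (adjusted p = 0.024).

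**Figure D3:**
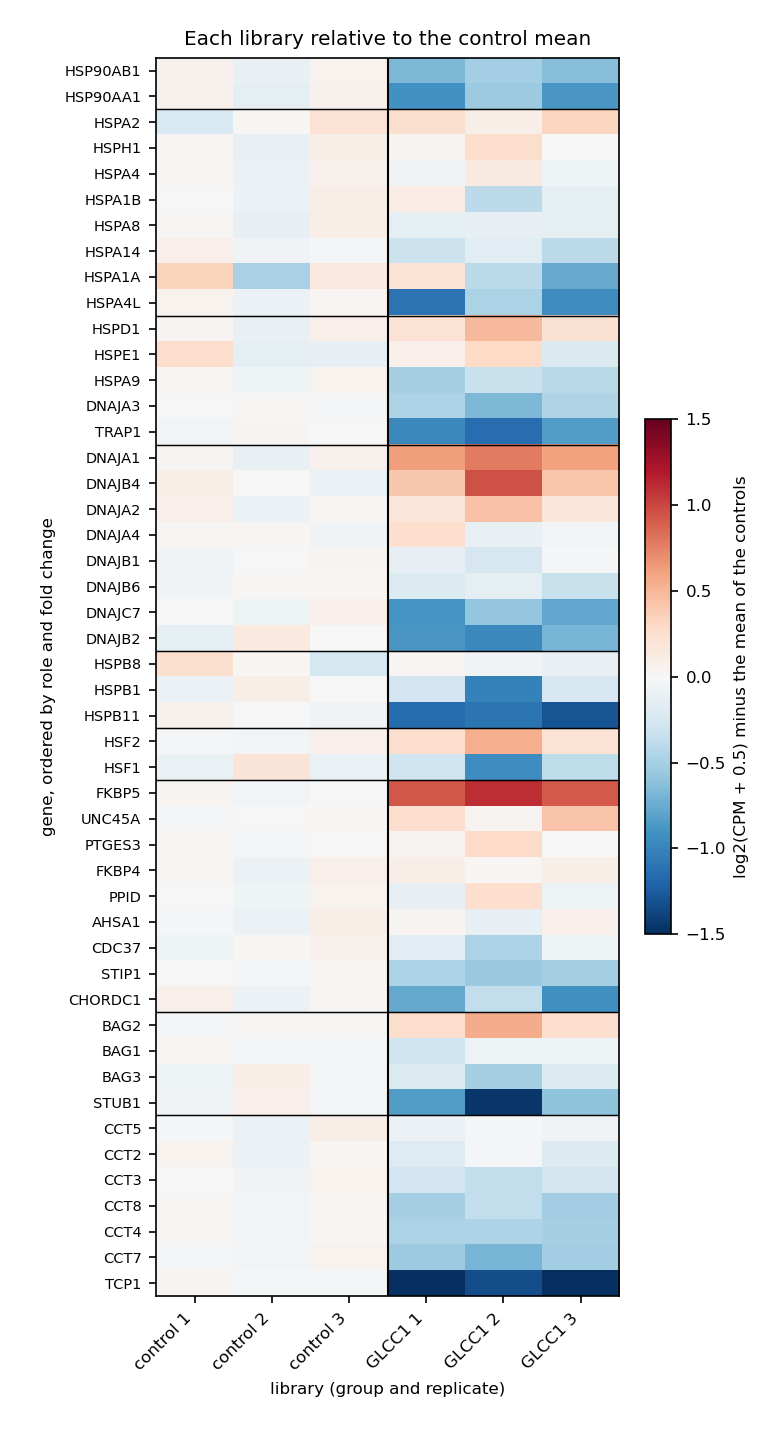
Log2(CPM + 0.5) of each chaperone gene (y axis, ordered by role and fold change) in each of the 6 libraries (x axis) minus the mean of the control libraries, with red higher and blue lower; the colours saturate for the deepest falls, such as TCP1. Within a gene, GLCC1 siRNA replicate 2 is the bluest library for STUB1, HSPB1 and HSF1 and the reddest for DNAJB4, FKBP5, HSPD1 and HSF2.

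Of the 7 chaperonin subunits listed, 5 fell (71.4%) and none rose, beside 29.8% lower and 20.1% higher among genes averaging 10 CPM or more. TCP1, the alpha subunit (chr6:160199530-160210735, build GRCh37, minus strand), had the largest fall of all 48 genes. It was at 408, 390 and 390 CPM in the control libraries and at 128, 157 and 131 CPM in the GLCC1 siRNA libraries. The highest GLCC1 siRNA library lay far below the lowest control library, and the log2 fold change was −1.51 ± 0.09 (adjusted p = 1.1e-07), or 2.85-fold lower. Exons of ACAT2 on the other strand cover 19.3% of its transcript.

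The other subunits fell less or did not pass. CCT7 changed by −0.59 ± 0.08 (adjusted p = 7e-05), CCT4 by −0.48 (adjusted p = 2.2e-04), CCT8 by −0.46 (adjusted p = 4.2e-04) and CCT3 by −0.31 (adjusted p = 0.0059). Without control replicate 3 CCT3 no longer passed (adjusted p = 0.052), nor did it with library totals only. CCT2 gave −0.14 (adjusted p = 0.22), and −0.19 without GLCC1 siRNA replicate 2 (adjusted p = 0.0024). CCT5 was at 380, 362 and 413 CPM with control siRNA and at 361, 381 and 371 CPM with GLCC1 siRNA, with overlap of the groups and a log2 fold change of −0.05 that became 0.07 when libraries were scaled by their totals only. Per kilobase of transcript, TCP1 stood at 0.758, 0.754 and 0.704 of the mean of the other 6 subunits in the control libraries and at 0.312, 0.382 and 0.317 of it in the GLCC1 siRNA libraries. The subunits of this ring thus changed unequally in level.

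Of the mitochondrial chaperones, 3 of 5 fell (60%) and 1 rose (20%), beside 29.8% and 20.1% of genes averaging 10 CPM or more. TRAP1, the HSP90 of mitochondria, was at 124, 130 and 126 CPM with control siRNA and at 64.3, 57.1 and 70.8 CPM with GLCC1 siRNA. The groups were well apart, and the change was −0.98 ± 0.09 (adjusted p = 4.3e-06). Exons of DNASE1 on the other strand cover 39.0% of its transcript. HSPA9, the mitochondrial HSP70, fell by 0.42 ± 0.08 (adjusted p = 9.4e-04), and its J-domain partner DNAJA3 fell by 0.52 ± 0.09 (adjusted p = 4.1e-04).

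HSPD1, the HSP60 chaperonin of the mitochondrial matrix, went the other way. It was at 1209, 1085 and 1238 CPM in the control libraries and at 1362, 1640 and 1380 CPM with GLCC1 siRNA, where replicate 2 was the highest. HSPD1 rose by 0.31 ± 0.09 (adjusted p = 0.017), or by 0.22 without that library. The adjusted p was 0.051 without control replicate 1 and 0.11 without control replicate 2. HSPE1, the lid of the same chaperonin, was listed at only 15.0 ± 2.58 CPM and 15.6 ± 2.84 CPM. Since 34.5% of its transcript lies under HSPE1-MOB4 and pseudogenes took between 19.2% and 30.6% of the summed counts of HSPE1 and its copies, its level is uncertain.

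The small heat shock protein HSPB1 (HSP27), which holds unfolded proteins without ATP, was at 237, 270 and 253 CPM with control siRNA and at 208, 125 and 213 CPM with GLCC1 siRNA. It fell by 0.48 ± 0.15 (adjusted p = 0.03), and replicate 2 was far below the other GLCC1 siRNA libraries. Without it the log2 fold change was −0.27 (adjusted p = 5.7e-05). HSPB1 lost its call when any one control library was left out, and with library totals only (adjusted p = 0.083). HSPB11 was at 118, 113 and 109 CPM and at 50.5, 52.7 and 45.8 CPM, without overlap, and its log2 fold change was −1.19 ± 0.09 (adjusted p = 5.5e-07). HSPB8, a partner of BAG3, had no more than 3 counts in any library, too few for a difference to be detectable.

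The heat shock factors moved in opposite directions. HSF1, the main factor of the heat shock response, was at 57.3, 70.0 and 57.3 CPM with control siRNA and at 49.7, 32.0 and 46.9 CPM with GLCC1 siRNA. It fell by 0.52 ± 0.14 (adjusted p = 0.014), and replicate 2 was the lowest library, without which the log2 fold change was −0.35. HSF2, which can bind the same elements, was at 33.3, 33.1 and 36.0 CPM and at 41.2, 50.0 and 39.9 CPM, and it rose by 0.35 ± 0.11 (adjusted p = 0.022), or by 0.25 without replicate 2. The groups did not overlap for either factor. The HSF1 call was lost without control replicate 2 (adjusted p = 0.094), and the HSF2 call without any one control library.

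Levels can be compared between genes only per length. Over the 48 genes they ran from 1090 ± 88.0 CPM per kilobase for HSPA8 to 0.0566 ± 0.0553 CPM per kilobase for HSPB8 in the control libraries. HSPA8 was followed by HSP90AA1 at 849 ± 67.2 and HSP90AB1 at 793 ± 52.3 CPM per kilobase, which overlapped between libraries, and then by HSPD1 at 524 ± 36.2 and CCT7 at 410 ± 13.7 CPM per kilobase. In the GLCC1 siRNA libraries HSPA8 remained first at 989 ± 7.11 CPM per kilobase. HSPD1 was second at 651 ± 69.2, ahead of HSP90AB1 at 519 ± 31.0 and HSP90AA1 at 498 ± 72.3 CPM per kilobase. The HSP90 genes again overlapped between libraries, and in GLCC1 siRNA replicate 2 HSP90AA1 (582) stood above HSP90AB1 (555). TCP1 went from place 14 to 21, TRAP1 from 24 to 31 and FKBP5 from 38 to 25.

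Other genes of the same pathways, on lists of 120 symbols of which 114 were tested, gave 12 higher (10.5%) and 36 lower genes (31.6%). Of genes that averaged 10 CPM or more, 20.1% were higher and 29.8% lower, and of all tested genes 14.9% and 16.7%. The median log2 fold change of the 114 was −0.10, beside −0.07 and 0.03. The share lower was thus near that of genes of 10 CPM or more. Of 27 further HSP90 cochaperones tested, 3 rose (11.1%) and 9 fell (33.3%). TOMM34, which binds HSP70 and HSP90 on the way of preproteins to mitochondria, fell by 1.68 ± 0.10 (adjusted p = 8.7e-08) from 82.1 to 25.5 CPM. RUVBL1 and RPAP3, subunits of the R2TP complex that works with HSP90, fell by 1.00 and 0.55. FNIP2, an inhibitor of the HSP90 ATPase, rose by 1.42 ± 0.10 (adjusted p = 3.2e-07) from 24.7 to 66.2 CPM. AHSA2, a relative of AHSA1, rose by 0.65 and NUDC, known from nuclear migration, by 0.38.

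Prefoldin carries unfolded actin and tubulin to the chaperonin. The list of prefoldin, other helpers, tubulin cofactors, chaperonin-like proteins and CCT6 genes gave 11 lower (55%) and 2 higher (10%) of 20 tested genes. PFDN4 fell by 1.91 ± 0.15 (adjusted p = 1e-06) from 35.0 to 9.45 CPM, PFDN6 by 0.88 and VBP1, a further prefoldin subunit, by 0.75, while BBS10, a chaperonin-like protein, rose by 0.34. CCT6A, the remaining chaperonin subunit, looked up because the ring is otherwise complete in the list, fell by 0.47 (adjusted p = 0.0014). Further HSP70 proteins and exchange factors gave 1 higher (6.67%) and 5 lower (33.3%) of 15. Falls were 1.04 for BAG4, 0.68 for HSPBP1 and 0.47 for BAG6, and ST13, the HSP70-interacting protein Hip, rose by 0.42.

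Of 37 further J-domain proteins tested, 5 rose (13.5%) and 7 fell (18.9%). DNAJC6 (auxilin) and DNAJC27 rose by 0.81 and 0.70, and DNAJC14 by 0.43. DNAJC5, the cysteine string protein, fell by 0.78, and DNAJC13 by 0.60. HSBP1, a small protein that binds HSF1, fell by 0.93 and HSF4 rose by 0.42. No small heat shock protein outside the 48 genes passed among 4 tested. Their group means were at most 1.12 CPM, where depth limits the test. Of 10 further genes known to be induced by HSF1 on heating, none rose and 3 fell (30%). These were DEDD2 by 0.57, ZFAND2A by 0.53 and MRPL18 by 0.24. Of the 10, HSPA6 and CRYAB had at most 4 counts in a library, too few for a difference to be detectable.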

How the data were processed

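The 6 libraries were made with an Illumina TruSeq kit and sequenced as paired ends. Each deposited file holds, for 1 library, the raw counts that the authors obtained for every gene symbol, mapped to hg19 with TopHat (TopHat2 2.0.11 in the submitters' processing notes) on an Ensembl GRCh37 transcript index and counted with HTSeq in union mode. The version and strand setting of HTSeq are not given in the sources used here. The final HTSeq tallies were removed, and read pairs on no gene amounted to between 11.2% and 14.2% of the pairs assigned to a gene, to none or to more than 1. In union mode pairs that fall on 2 genes are given to neither, so overlapping genes lose counts, and pairs placed on near-identical copies are uncertain.

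Genes with under 5 counts summed over a group, in both groups, were removed, as in the study. Counts were scaled by TMM and fitted with the robust quasi-likelihood model of edgeR 4.0.16 (R 4.3.3), with Benjamini-Hochberg adjustment over 23074 genes. The study used DESeq2, which was an alternative here (1.42.0). Every one of the 48 genes could be named. Of the other lists, up to 3 rises and 3 falls with adjusted p under 0.05 and a mean of at least 10 CPM were named, and CCT6A was added after its values were seen. One gene that this rule names is not reported here. Members and lists were chosen with earlier results of these data known. Sums and shares were compared by exact two-sided permutation over libraries. Chi-square values per degree of freedom between libraries of a group were between 1.91 and 18.9, so no library was a copy of another. Library depth was 11948790 to 19042516 counted pairs, which limits genes near 1 CPM. On simulated data with the means and depths of this comparison, 200 of 23074 genes were changed by 2-fold. These were drawn only from genes that averaged 1 CPM or more. Of them 182 were recovered, with 11 unchanged genes among 193 called. Far more genes were called in the data, 3429 higher and 3864 lower, and recovery below 1 CPM was not simulated.

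Positions, exon overlap and lengths (1 canonical transcript per gene) are from GENCODE 44 on GRCh37, and promoters from RefSeq on GRCh38.p14, where HSPA14, HSF1, FKBP4 and STUB1 had no entry. Planned protein comparisons were not run. Alternatives were DESeq2, DESeq2 size factors in edgeR, library totals, filters of 1 count in any and 10 counts in every library, a replicate block, an adjusted p under 0.001, summed HSPA1A and HSPA1B, summed pseudogenes, the groups of the library names, the 3-unit element and each library left out in turn. Python 3.11.15, numpy 2.4.6, pandas 2.3.3, scipy 1.17.1 and matplotlib 3.10.9 were used for the remaining steps.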

Additional observations from a re-analysis of the deposited data

How the results depend on the processing

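Of the 28 genes called, 19 kept the call in every alternative with the groups of the titles and the threshold of 0.05, 9 lost it in at least 1 (HSPA14, HSPD1, DNAJA2, HSPB1, HSF1, HSF2, BAG2, BAG3 and CCT3), and none of the 28 turned sign. The count of higher genes was 7, with 2 at an adjusted p under 0.001 and between 3 and 8 when 1 library was left out: it was 3 without control replicate 1, 3 without control replicate 2 and 4 without control replicate 3. The count of lower genes was 21, with 16 at an adjusted p under 0.001 and between 17 and 25 with 1 library left out. DESeq2 gave 7 higher and 21 lower. The median of −0.23 was −0.10 with library totals only, −0.15 with the filter of 10 counts in every library, and between −0.25 and −0.15 with 1 library left out. Library totals moved the median of all tested genes from 0.03 to 0.15 and their calls from 3429 higher and 3864 lower to 4735 higher and 2797 lower, with 8 higher and 17 lower among the 48 genes. With library totals only, 4 of the falls lost their call, those of HSPA14, HSPB1, BAG3 and CCT3, so these depend on the scaling. With the groups of the library names, 21 of the 48 genes were higher and 7 lower with a median of 0.23. The elements counted in the promoters were 21 pairs against 7 of 3 units. Signs turned only for genes that had not passed: AHSA1 at −0.0009 when genes with 1 count anywhere were kept and −0.0014 with the block, CCT5 at 0.069 with library totals, HSPE1 at −0.0031 with pseudogenes summed. With 1 library left out the values ran from −0.045 to 0.063 for AHSA1, −0.061 to 0.20 for HSPE1, −0.055 to 0.045 for HSPA4, −0.097 to 0.098 for PPID and −0.070 to 0.12 for DNAJA4. The mean correlation of deviations was −0.30 between libraries with the same replicate number and 0.14 between those with other numbers. Deviations from a group mean cancel out within the group, so these means are not independent. Whether the numbers pair the libraries therefore cannot be told from them. With the replicate number as a block 6 genes were higher and 19 lower with a median of −0.23. The difference in the HSP90AA1 share was between −3.99 and −2.23 points with 1 library left out and −2.76 with pseudogenes summed. Genes near 1 CPM or below, such as HSPA1A and HSPB8, are limited by depth.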
